A study of Mus musculus with 6 samples.

Results

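The genes described here make and break down prostaglandins: the cyclooxygenase genes Ptgs1 and Ptgs2, the prostaglandin D synthase gene Ptgds and the prostaglandin dehydrogenase gene Hpgd, 4 genes chosen by name. The platform annotation names 3 of them on the array, of 8251 genes in all, through 5 of 12422 probe sets. No probe set is given Ptgs1 as its single symbol in that annotation, so Ptgs1 was not analysed here. Messenger RNA of mouse spinal cord was measured on 6 Affymetrix arrays, 1 for each of 3 genotypes at 2 ages. The genotypes were G93A-SOD1 (strain label B6SJL-G93A-SOD1 at 75 days and B6SJL-G93A-SOD1H at 110 days), which carries the G93A form of superoxide dismutase known from familial amyotrophic lateral sclerosis, WT-SOD1 (B6SJL-WT-SOD1 at 75 days, with no strain label at 110 days), which carries the wild-type form, and nontransgenic B6SJL. The sources used here do not state the mice's sex, the promoter of the transgenes or the number of founder lines. Each array held RNA prepared from 4 spinal cords and was hybridised a single time, so no genotype and age has a replicate and variation between animals cannot be seen. Per the design text, the G93A-SOD1 mice were presymptomatic at the earlier age and had tremor and some paralysis at the later one, whereas no disease was seen in WT-SOD1 mice. WT-SOD1 and nontransgenic cord are therefore called disease-free below.

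Prostaglandins are short-lived lipid signals made from arachidonic acid, which phospholipases release from membranes. The cyclooxygenases turn arachidonic acid into prostaglandin H, and terminal synthases such as the one encoded by Ptgds turn this into individual prostaglandins. The dehydrogenase encoded by Hpgd oxidises prostaglandins to forms with little receptor activity, the first step of their breakdown. In the central nervous system Ptgds is known as an abundant transcript of oligodendrocytes, leptomeninges and choroid plexus, while Ptgs1 is known from microglia and Ptgs2 from excited neurons and inflamed tissue.

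Values are deposited probe set intensities, which are linear and have no absolute unit. Median intensity per array lay between 77.7 and 80.9. A floor of 31, the 25th percentile over all arrays, was applied before log2 was taken, and 6737 probe sets with at least 1 array above 79.7, the pooled median, were tested. The spread for the tests came from the disease-free arrays of the same age, which were taken as a pair. Limma drew it toward a spread shared by all tested probe sets. A G93A-SOD1 array, alone in its group, was taken to have the same spread. Intensity of Sod1 at 75 and 110 days was 1738 and 1716 for G93A-SOD1, 1583 and 1906 for WT-SOD1, and 1037 and 1498 for nontransgenic cord, so all 4 transgenic arrays lay above both nontransgenic ones. Markers of the tissue were present: 14 of 16 measured neuron genes, 13 of 13 astrocyte genes, 9 of 10 oligodendrocyte genes and 5 of 6 motor neuron genes passed the filter. Bacterial spike-in probe sets averaged 1590 on the WT-SOD1 110-day array and 1198 on the nontransgenic 75-day array, against 645 to 850 on the other 4. The same pair of arrays also read highest for cerebellum genes such as Gabra6, at 429 and 290, against 21.3 to 85.5 on the other 4. That difference runs across genotype and age, and results are also given for the 4 arrays with the lower levels.

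The promoters of Hpgd, whose level differed most among the members, and of Ptgds, the member with several probe sets, are shown 5′ to 3′ from 250 bases before to 50 bases after the start of the gene (RefSeq, GRCm38.p6). Hpgd lies on the plus strand (chr8:56294302-56294601) and Ptgds on the minus strand (chr2:25469700-25469999). Capitals mark matches to the motifs described next.
Hpgd: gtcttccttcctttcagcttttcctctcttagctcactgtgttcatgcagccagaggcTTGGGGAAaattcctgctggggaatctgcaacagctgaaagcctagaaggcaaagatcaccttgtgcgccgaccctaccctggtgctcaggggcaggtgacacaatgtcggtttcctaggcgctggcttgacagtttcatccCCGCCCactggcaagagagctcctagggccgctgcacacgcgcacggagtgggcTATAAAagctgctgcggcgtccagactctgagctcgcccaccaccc
Ptgds: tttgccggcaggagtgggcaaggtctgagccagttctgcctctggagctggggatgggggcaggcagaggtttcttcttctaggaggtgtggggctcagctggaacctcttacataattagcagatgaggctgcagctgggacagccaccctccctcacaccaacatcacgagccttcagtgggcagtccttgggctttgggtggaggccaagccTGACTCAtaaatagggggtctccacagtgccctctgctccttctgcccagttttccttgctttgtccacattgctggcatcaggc

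A set of 6 short motifs were searched on both strands, with matches of different motifs allowed to overlap. A TATA box (TATAAA), present in 13.6% of 32544 RefSeq promoters of the same length, matched once in the Hpgd window, 4 bases after the annotated start, and not in the Ptgds window. A GC box (GGGCGG, in 35.9% of promoters) matched once in the Hpgd window on the opposite strand, and the C/EBP motif TTGNNNAA (in 36.7%) matched once on the same strand. The AP-1 motif TGANTCA, in 7.79% of promoters, matched once in the Ptgds window, 35 bases before the start, and not in that of Hpgd. Neither window held a CCAAT box (CCAAT, in 37.4%) or the E box CACGTG (in 7.17%). These matches describe letters in a window and say nothing of whether a factor binds there.

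Hpgd, the gene of the prostaglandin-degrading dehydrogenase, was high on a single array, that of diseased cord. Its probe set 93351_at read 256 on the G93A-SOD1 array at 110 days, against 46.1 on the WT-SOD1 and 45.6 on the nontransgenic array of that age. At 75 days it read 41.5 on the G93A-SOD1 array, against 51.1 on the WT-SOD1 and 46.2 on the nontransgenic array. The 110-day G93A-SOD1 array thus stood alone, and the other 5 arrays lay close together just above the floor. The difference at 110 days was 5.58-fold, or 2.48 ± 0.14 SE on the log2 scale. This difference was known when the genes were chosen, so it is a description and carries no test. Of all tested probe sets, 16.9% lay above all 4 disease-free arrays on the 110-day G93A-SOD1 array, and 14 of 6737 did so by at least 4-fold. Restricted to the 4 arrays whose spike-ins were lower, the difference was 2.49. Hpgd passed the filter on low values through the 110-day G93A-SOD1 array only.

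Before symptoms, at 75 days, Hpgd read lower on the G93A-SOD1 array than on any disease-free array, by a small amount. The log2 difference was -0.23 ± 0.14 SE (95% interval -0.55 to 0.10) and did not pass the limma test (adjusted p = 0.62). Among all tested probe sets 0 passed at 75 days (0% of 6737), while 664 had an unadjusted p under 0.05 by limma. With age alone, Hpgd in disease-free cord had a log2 difference of -0.08 ± 0.11 SE for 110 minus 75 days (limma, adjusted p = 0.998), where 0.0148% of probe sets passed. The wild-type transgene gave a log2 difference of 0.08 ± 0.19 SE for WT-SOD1 minus nontransgenic (limma, adjusted p = 1), where 0.104% passed. Ordered by level, the 110-day G93A-SOD1 array was followed by WT-SOD1 at 75 days, nontransgenic at 75 days, WT-SOD1 at 110 days, nontransgenic at 110 days and G93A-SOD1 at 75 days. The neighbours in the middle of this order, from nontransgenic 75 days to nontransgenic 110 days, differed by at most 0.01 on the log2 scale, less than the fitted SD between arrays of 0.11, while the top array stood 2.32 above the next. The steps above and below these neighbours were 0.15 and 0.14, little more than that SD.

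**Figure D1:**
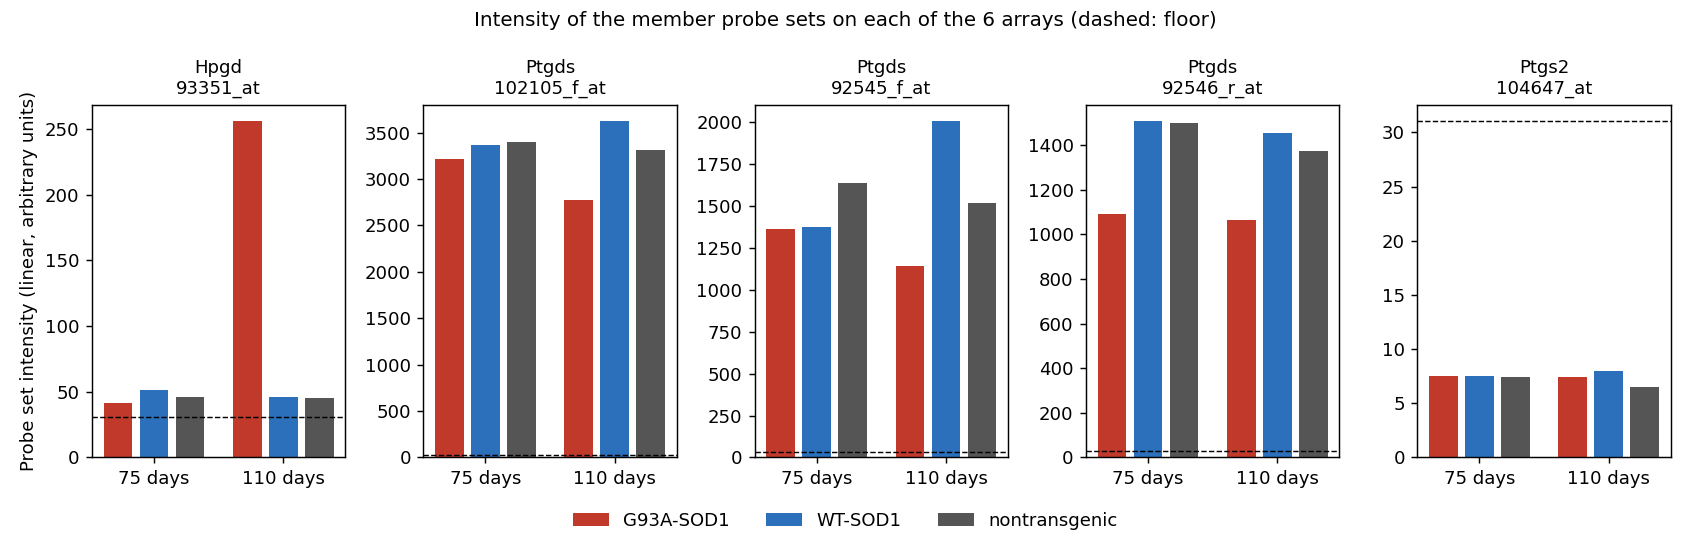
Bars give the deposited intensity of each member probe set on each array, from 0, by age and genotype, 1 array per bar and hence no error bars; the dashed line is the floor of 31. Hpgd reads 256 on the G93A-SOD1 array at 110 days and 41.5 to 51.1 elsewhere, all 3 Ptgds probe sets are lowest on the G93A-SOD1 array of each age, and Ptgs2 lies under the floor on all arrays.

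Ptgds, encoding the prostaglandin D synthase of the brain, which is also a secreted carrier of lipophilic molecules, read slightly lower on both G93A-SOD1 arrays than on any disease-free array. Its brightest probe set, 102105_f_at, stands for the gene. It read 2777 on the G93A-SOD1 array at 110 days, against 3620 on the WT-SOD1 and 3309 on the nontransgenic array. At 75 days it read 3216 on the G93A-SOD1 array, against 3373 on the WT-SOD1 and 3403 on the nontransgenic array. The diseased array is the lowest of the 6 and the presymptomatic one the next lowest. Level at 110 days was 80.2% of disease-free cord, a log2 difference of -0.32 ± 0.14 SE that is given without a test, like all member values of that comparison.

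The other Ptgds probe sets, which were designed from 1 shared sequence record, ran the same way with different sizes. Probe set 92545_f_at read 1143 on the G93A-SOD1 array at 110 days, against 2005 on the WT-SOD1 and 1521 on the nontransgenic array. At 75 days it read 1361 on the G93A-SOD1 array, against 1374 on the WT-SOD1 and 1636 on the nontransgenic array. Here the 75-day G93A-SOD1 and WT-SOD1 arrays hardly differ, and the disease-free arrays are widely spread. The highest readings of 92545_f_at, 2005 and 1636, were on the arrays with the higher spike-in levels, against 1374 and 1521 on the other disease-free arrays. The same arrays also read highest for 102105_f_at. Probe set 92546_r_at read 1064 on the G93A-SOD1 array at 110 days, against 1455 on the WT-SOD1 and 1374 on the nontransgenic array. At 75 days it read 1090 on the G93A-SOD1 array, against 1505 on the WT-SOD1 and 1498 on the nontransgenic array. For this probe set both G93A-SOD1 arrays stand clear of the disease-free ones. Log2 differences at 110 days were -0.61 ± 0.20 SE for 92545_f_at and -0.41 ± 0.13 SE for 92546_r_at. The identifiers ending in _f_at and _r_at mark probe sets that may cross-hybridise or that break the array maker's design rules.

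On all 3 Ptgds probe sets both G93A-SOD1 arrays lay below the 4 disease-free arrays, as did 15.6% of all tested probe sets, and probe sets of 1 gene are not independent. At 110 days this position held for all 3 under scaling to 1 median and under quantile normalization. At 75 days it held for 2 of the 3 under median scaling. Under quantile normalization it held at 75 days only for 92546_r_at, and the log2 difference of 102105_f_at turned to 0.01. In the test at 75 days 102105_f_at had a log2 difference of -0.08 ± 0.14 SE (95% interval -0.40 to 0.25; limma, adjusted p = 0.885). Probe set 92546_r_at had -0.46 ± 0.13 SE (95% interval -0.77 to -0.15), with an unadjusted p of 0.0097 and an adjusted p of 0.46 by limma. None of the Ptgds probe sets thus passed at 75 days. Restricted to the 4 arrays whose spike-ins were lower, the difference of 102105_f_at was -0.25 at 110 days and -0.07 at 75 days.

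Neither age nor the wild-type transgene moved Ptgds past the test. The log2 difference of 102105_f_at for 110 minus 75 days in disease-free cord was 0.03 ± 0.11 SE (limma, adjusted p = 0.998), and that for WT-SOD1 minus nontransgenic was 0.06 ± 0.19 SE (limma, adjusted p = 1). Within each genotype, the log2 change from 75 to 110 days was -0.21 in G93A-SOD1, 0.10 in WT-SOD1 and -0.04 in nontransgenic cord. In the order of levels the 4 disease-free arrays of 102105_f_at differed from their neighbours by 0.01 to 0.09 on the log2 scale, within the fitted SD of 0.11, and the gap between the G93A-SOD1 arrays was 0.21.

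Ptgs2, encoding the inducible cyclooxygenase, was not seen above the floor on any array. At 75 and 110 days its 1 probe set, 104647_at, had an intensity of 7.54 and 7.39 in G93A-SOD1 cord, 7.56 and 7.98 in WT-SOD1 cord, and 7.44 and 6.49 in nontransgenic cord. All 6 values lie under the floor of 31, where they have no order. Ptgs2 was therefore not tested, and no fold change is given.

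Most markers of microglia and macrophages rose on the array where Hpgd was high, and fewer or none of the astrocyte and lymphocyte or granulocyte markers did. Of 23 measured genes of microglia and macrophages, 22 lay above all disease-free arrays on the 110-day G93A-SOD1 array, and 13 of the 17 that were tested rose by limma (adjusted p under 0.05), while 0 fell. Of all tested probe sets, 16.9% lay above all 4 disease-free arrays there and 1.51% passed the test at that age. Lyz2, Aif1, Cd53 and Adgre1 of the list passed the filter on low values through that array only, so their being tested depended on it. The summed intensity of the list was 11169 on the G93A-SOD1 array at 110 days and 3441 on that at 75 days, against 3013 to 3592 on the disease-free arrays. Ptprc, Fcer1g and Msr1 of this list lay at or under the floor on all arrays. They are counted among the 22, although values under the floor have no order. The share of 16.9% covers tested probe sets only, whereas the 23 are all measured genes. Of 13 astrocyte genes 3 rose. The astrocyte list summed to 16570 on the G93A-SOD1 array at 110 days and 11987 at 75 days, against 11251 to 12620 on the disease-free arrays. Its median log2 difference at 110 days was 0.08, with 6 genes above all disease-free arrays and 2 below. Gfap alone read 4442 on the 110-day G93A-SOD1 array, against 1583 to 2206, so the sum does not stand for the whole list. Among lymphocyte and granulocyte markers 0 of 11 tested genes passed, with Cd3g, Mpo, Cd8a and Mcpt4 at or under the floor on all arrays. The part of these cells in the Hpgd signal was not tested, and in RNA of whole cord more cells of a type and more RNA per cell cannot be told apart.

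**Figure D2:**
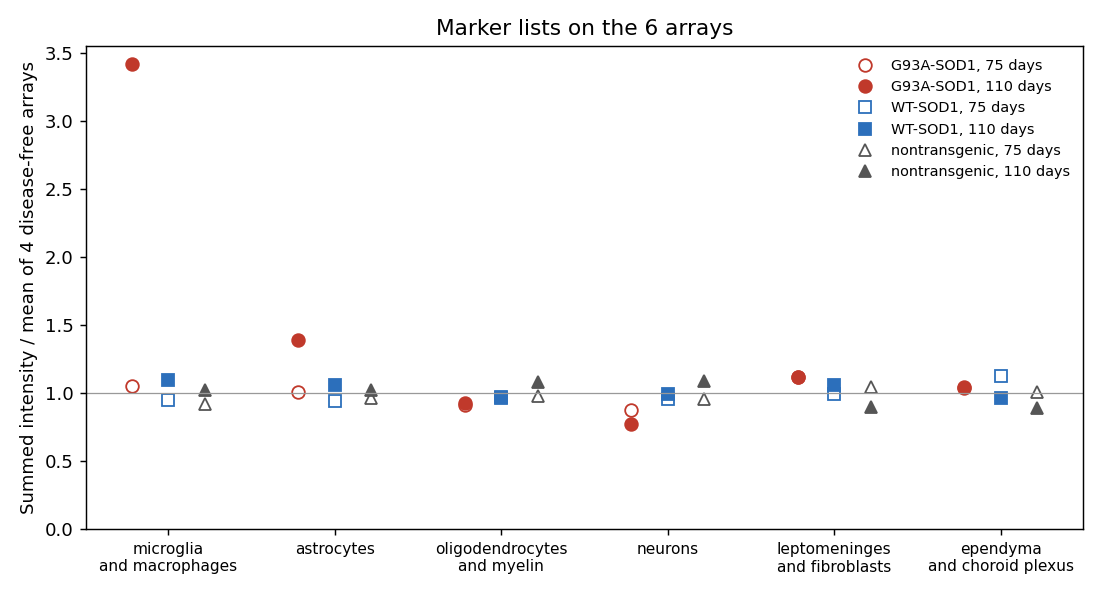
Each point is the summed intensity of a marker list on 1 array, divided by the mean of the 4 disease-free arrays, for 6 lists along the horizontal axis; symbols give genotype and filled symbols 110 days. The microglia and macrophage sum on the 110-day G93A-SOD1 array (11169) stands far above all others, and the oligodendrocyte and neuron sums of both G93A-SOD1 arrays lie under the disease-free ones.

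For cell types in which Ptgds is known to be abundant, the oligodendrocyte and myelin list summed to 12305 and 12479 in G93A-SOD1 cord at 75 and 110 days, against 13067 to 14558 on the disease-free arrays, while 0 of 9 tested genes passed by limma at either age and 4 of 10 measured genes lay below all disease-free arrays at 110 days. The list of leptomeninges and fibroblasts summed to 3098 and 3111 on the G93A-SOD1 arrays, against 2494 to 2938 on the disease-free arrays, with Crabp2 and Foxc1 under the floor throughout. Of its 9 tested genes 2 rose at 110 days, Igfbp2 and Fmod. Of its 17 measured genes 4 lay above all disease-free arrays at that age: Igfbp2, Fmod, Lum and Foxc1. Lum did so narrowly, at 36.7 against at most 35.6, and Foxc1 under the floor, where values have no order. Of all tested probe sets 16.9% lay above, a share that does not cover untested genes such as Lum and Foxc1. The median log2 difference of the list was 0.04 at 110 days and 0.002 at 75 days. Igfbp2 alone read 501 on the 110-day G93A-SOD1 array, against 138 to 178 on the disease-free arrays, and Col1a2 read 611 on the 75-day one, against 360 to 436, so the higher sums rest largely on single genes. Ependyma and choroid plexus genes summed to 694 and 696 on the G93A-SOD1 arrays, within the disease-free range of 596 to 752. Of 16 measured neuron genes, 14 lay below all disease-free arrays at 110 days and 10 at 75 days. Neuron genes summed to 12026 and 10547 in G93A-SOD1 cord at 75 and 110 days, against 13048 to 14897 on the disease-free arrays, with 1 of 14 tested genes falling at 110 days. Genes known from cerebellum, a tissue outside the cord, summed to 3640 and 3272 on the G93A-SOD1 arrays, against 4479 to 6369 on the disease-free arrays, with 8 of 9 measured genes below all disease-free arrays at each age and 0 of 7 passing the test. The highest of these sums, 6369 and 5890, were on the WT-SOD1 110-day and nontransgenic 75-day arrays, those with the higher spike-in levels, against 4479 and 4600 on the other disease-free arrays. Pvalb alone read 2614 and 2186 on the G93A-SOD1 arrays, against 2678 to 3034 on the disease-free arrays, and is a large part of each sum. Its highest reading was on the WT-SOD1 75-day array, so it does not follow the order of the sums. The part of any of these cells in the Ptgds level was not tested. Of all tested probe sets, 1.51% passed the test at 110 days and 0% at 75 days. Both G93A-SOD1 arrays lay below all disease-free arrays on 15.6% of them. The share below at a single age was not counted, so the counts of genes below have no background beside them.

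The profile of Hpgd over the 6 arrays was set against those of 5198 other genes by the root mean square difference of log2 profiles, each centred on its own mean. The closest were Mpeg1 at 0.14, Cd52 at 0.18, C1qc at 0.20, and Cst7 and C1qa at 0.21 each, against a median of 0.94 over all genes. Of these 5 genes, 4 also stand in the microglia and macrophage list. As Hpgd varied little outside the 110-day G93A-SOD1 array, the match rests mainly on that 1 array, whose value was known when Hpgd was chosen. It thus picks genes with a rise of like size there, and their log2 differences at 110 days were 2.07 to 2.41. A link between Hpgd and these genes was not tested. Mpeg1 read 680 on the G93A-SOD1 array at 110 days and 147 at 75 days, against 128 to 155 on the disease-free arrays. Hpgd is unlike the 5 genes at 75 days: its difference was -0.23, while theirs lay between 0.07 and 0.28, which was not tested between genes. The Hpgd readings behind it lie just above the floor, and the difference was 0 with the floor at the 40th percentile.

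**Figure D3:**
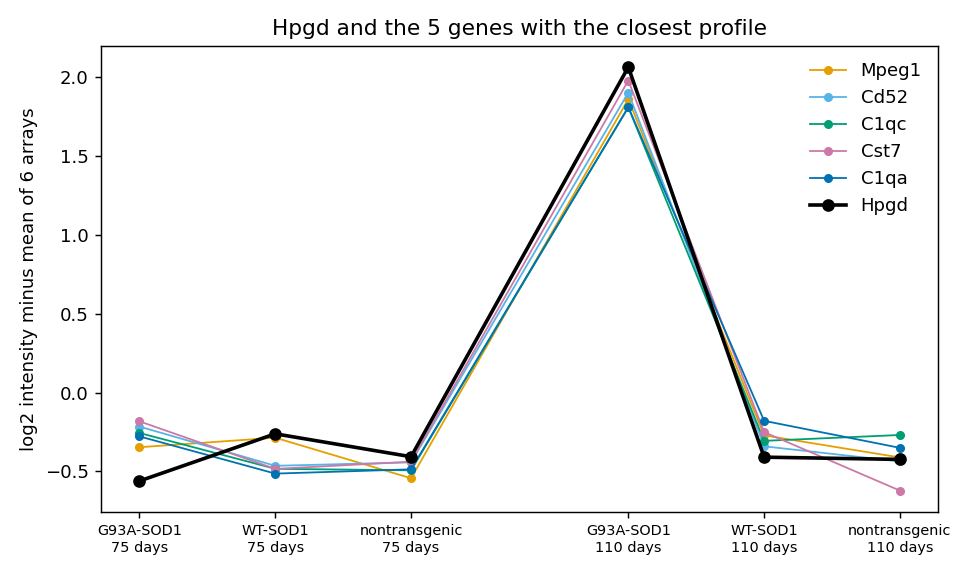
Points give log2 intensity minus the gene's mean over the 6 arrays, for Hpgd (black) and the 5 genes with the smallest root mean square difference from it (0.14 to 0.21); lines join the arrays for reading only. All 6 genes peak on the 110-day G93A-SOD1 array, and at 75 days Hpgd is lowest on the G93A-SOD1 array.

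For Ptgds the closest profiles were those of Fbxo3, Cyth3, Ets2, Cab39l and Hpcal1, at 0.04 each, against a median of 0.16. Like Ptgds, they varied little between arrays. Ets2, encoding a transcription factor, read 93.4 on the G93A-SOD1 array at 110 days and 99.6 at 75 days, against 109 to 116 on the disease-free arrays. None of the 5 stands in a marker list.

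Around the members, no other tested eicosanoid gene passed the test with all arrays. Of 52 other measured genes for prostanoid synthesis, transport and receptors, arachidonate release and leukotrienes, 25 were tested. By limma 0 of 25 passed at 110 days, where 1.51% of all probe sets passed, and 0 passed at 75 days, with age or with the wild-type transgene. At an unadjusted p under 0.05 by limma the counts were 2 at 110 days, and 1 in each of the other comparisons. Over all 6737 tested probe sets these counts were 693 at 110 days, 664 at 75 days, 209 with age and 79 with the wild-type transgene. At the low shares that passed after adjustment, 0 of 25 says little about these genes. The median log2 difference at 110 days was 0.05, with a range of -0.25 to 0.39, against a median of -0.02 over all tested probe sets. Acsl4, encoding an arachidonate-preferring acyl-CoA synthetase, was called lower in G93A-SOD1 cord only when the WT-SOD1 110-day array was left out. Calls over all probe sets also rose at both ages under that setting. With all arrays its log2 difference was -0.59 at 75 days and -0.10 at 110 days. At 110 days it read 87.2 on the G93A-SOD1 array, between 64.3 on the WT-SOD1 and 136 on the nontransgenic array.

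Among the synthases, Tbxas1, encoding thromboxane synthase, read 104 and 109 in G93A-SOD1 cord at 75 and 110 days, against 87.1 to 95.2 on the disease-free arrays. Both G93A-SOD1 arrays are the highest, yet the log2 difference at 110 days of 0.26 ± 0.14 SE did not pass the limma test (adjusted p = 0.617). Cbr1, encoding a carbonyl reductase that can act on prostaglandins, read 91.3 and 98.4 on the G93A-SOD1 arrays, against 102 to 125 on the disease-free arrays (log2 difference at 110 days -0.25, limma, adjusted p = 0.744). In the list of breakdown and transport, the organic anion transporter gene Slco3a1 was the 1 tested gene besides Hpgd, with 406 and 327 in G93A-SOD1 cord at 75 and 110 days, against 341 to 402 on the disease-free arrays (log2 difference at 110 days -0.11, limma, adjusted p = 0.965).

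Of 12 measured receptor genes 6 lay at or under the floor on all arrays: Ptger2 and Ptger3 (receptors of prostaglandin E), Ptgdr (of prostaglandin D), Ptgir (of prostacyclin), Pparg and Ptgfrn, named here because of these values. Of the other 6, Ptgdr2 (a receptor of prostaglandin D), Ptger1 (one of prostaglandin E) and Tbxa2r (that of thromboxane) were tested, and 0 of these 3 passed. Ptgdr2 read 151 and 162 in G93A-SOD1 cord at 75 and 110 days, against 140 to 173 on the disease-free arrays, and Ptger1 read 177 and 188, against 173 to 189. Tbxa2r read 195 and 194, against 168 to 222. Ptgdr2 and Ptger1 thus lay within the disease-free range, with log2 differences at 110 days of 0.05 and 0.06 (limma, adjusted p = 0.9995 and 0.994) whose signs turned, to -0.10 and -0.01, without the nontransgenic 110-day array.

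Of the genes that free arachidonate, Pla2g12a, encoding a secreted phospholipase, read 233 and 405 in G93A-SOD1 cord at 75 and 110 days, against 260 to 345 on the disease-free arrays. It was thus lowest before symptoms and highest in disease, with log2 differences of -0.33 at 75 days and 0.23 at 110 days (limma, adjusted p = 0.568 and 0.799). Mgll, encoding the lipase that hydrolyses an endocannabinoid to arachidonate, read 95.8 and 118 on the G93A-SOD1 arrays, against 131 to 147 on the disease-free arrays. Its log2 differences were -0.50 at 75 days and -0.23 at 110 days (limma, adjusted p = 0.46 and 0.698). Acsl4 read 57.5 and 87.2 in G93A-SOD1 cord at 75 and 110 days, against 64.3 to 136 on the disease-free arrays, which spread widely.

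In the leukotriene list, Ephx1, encoding microsomal epoxide hydrolase, read 227 and 273 in G93A-SOD1 cord at 75 and 110 days, against 197 to 221 on the disease-free arrays. Ltc4s, encoding a leukotriene C synthase, read 108 and 134, against 92.2 to 107. Both genes were highest on the 110-day G93A-SOD1 array, with log2 differences of 0.39 ± 0.14 SE for Ephx1 and 0.36 ± 0.14 SE for Ltc4s, and neither passed the limma test (adjusted p = 0.376 and 0.422). Of the 25 tested genes 6 lay above all disease-free arrays at 110 days, as did 16.9% of all tested probe sets, and on 3 of 25 both G93A-SOD1 arrays lay below them, as on 15.6% of all.

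**Figure D4:**
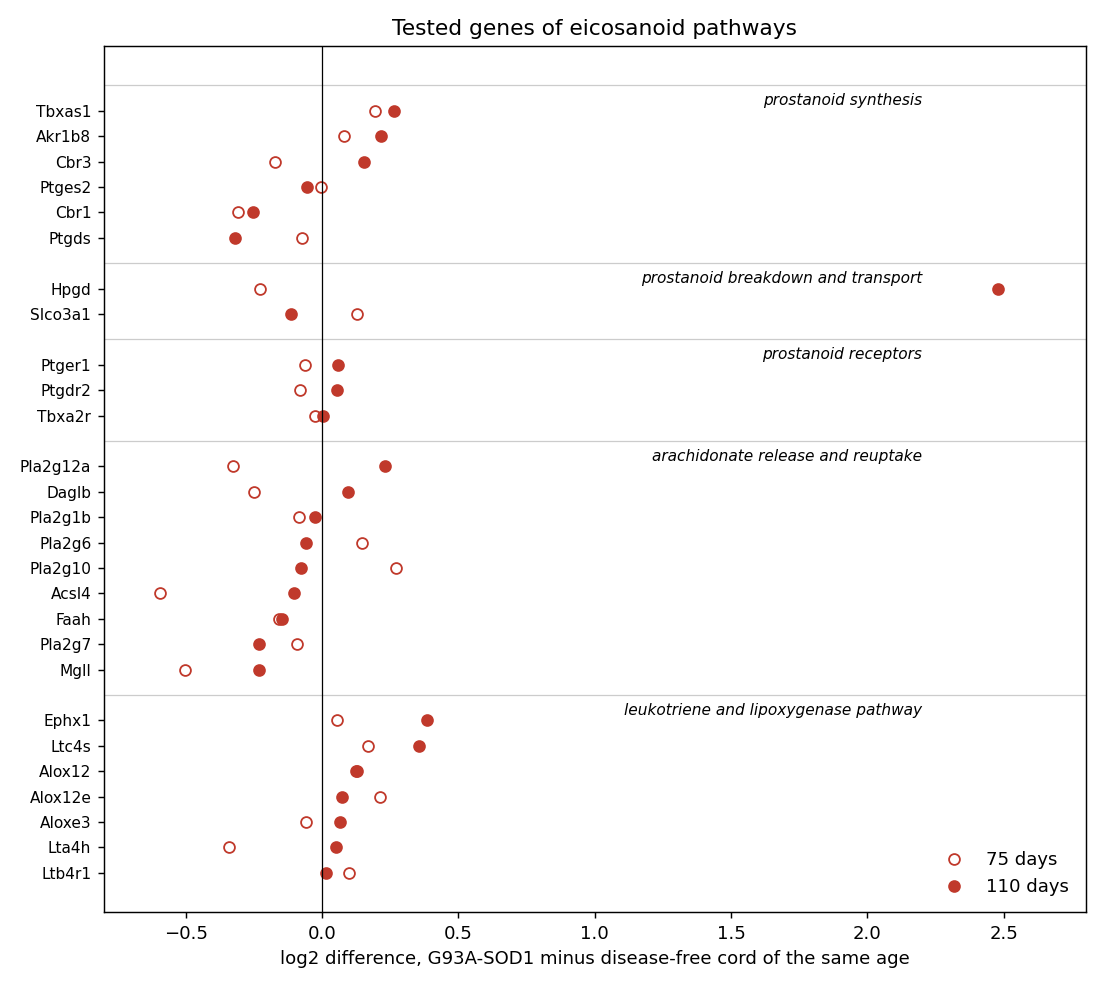
Each row is a tested gene of 5 eicosanoid lists, and the horizontal axis gives the log2 difference of the G93A-SOD1 array from the mean of the disease-free arrays of the same age (open, 75 days; filled, 110 days; no error bars, 1 G93A-SOD1 array per age). Hpgd at 110 days lies at 2.48, while the 25 genes that are not members lie between -0.25 and 0.39 at that age.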

How the data were processed

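Poly(A) RNA was labelled as biotin-cRNA and hybridised, per the labels' protocols. The authors deposited linear intensities, 1 for each probe set on each array, by a probe summary and scaling not given in the sources used here. Intensities were used as deposited, without the 66 control probe sets, floored at 31 and log2-transformed. Of 12422 probe sets 10833 had 1 gene symbol, and the one with the highest mean stands for its gene. Fits were made in limma 3.58.1 (R 4.3.3), with Benjamini-Hochberg adjustment at 0.05 over 6737 probe sets, 4 means and 2 residual degrees of freedom. WT-SOD1 was set against nontransgenic with age as a term and 1 residual degree of freedom. In that fit limma used 1 spread pooled over all tested probe sets, 0.19 on the log2 scale. Its SE is therefore the same for every probe set and holds nothing of a gene's own spread. The p-values reflect how far arrays of unlike genotype scatter and hold no spread among animals. The number of arrays limits the precision. SE is the moderated standard error. In the fit of 4 means it joins a probe set's own spread to a prior over all tested probe sets. That prior, with an SD of 0.12 and 5.13 degrees of freedom, outweighs the 2 residual ones, so SEs and fitted SDs are largely shared. The fits were first tested on simulated data. Other floors, filters, scalings, controls and a spike-in term were tried.

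The members and lists were chosen with earlier results of these data known. Named genes were the members, from each pathway list any gene past a test plus the 2 farthest from 0 at 110 days, and the 5 closest profiles. Acsl4, Tbxa2r, the marker genes and the genes under the floor fall outside this rule and were named with their values known. Ptgs1 was not analysed here. Promoter sequences are RefSeq's.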

Additional observations from a re-analysis of the deposited data

Results flagged for a closer look

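Hpgd stood out for its difference between ages in G93A-SOD1 cord. Its log2 intensity at 110 days minus that at 75 days was 2.62 in G93A-SOD1, -0.15 in WT-SOD1 and -0.02 in nontransgenic cord. The disease-free values have the other sign but are small: their joint age difference did not pass the limma test (adjusted p = 0.998), and it was 0 with the floor at the 40th percentile. Each value is the difference of 2 arrays, and the difference between genotypes was not tested, because the 110-day level was known when the gene was chosen.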

How the results depend on the processing

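The Hpgd difference at 110 days lay between 2.18 and 2.49 over 14 alternative settings. The lowest value, 2.18, came with the floor at the 40th percentile, which raises its dim arrays, and leaving out single disease-free arrays gave 2.47 to 2.49. The Ptgds difference at 110 days stayed negative in the 16 alternatives run, at -0.61 to -0.18. These included the other Ptgds probe sets, and -0.61 is the value of 92545_f_at. For the brightest probe set the range was -0.38 to -0.18, with -0.18 under quantile normalization. At 75 days the Ptgds difference was -0.46 to 0.01, where -0.46 is the value of 92546_r_at. For the brightest probe set it was -0.08 to 0.01 at that age. No alternative that was tested gave a Ptgds call at 75 days (limma, lowest adjusted p = 0.46, for 92546_r_at). For Hpgd at 75 days the lowest adjusted p was 0.254, and with the floor at the 40th percentile all arrays but the 110-day G93A-SOD1 one lay at the floor. Calls over all probe sets depended more on the settings. At 110 days 102 passed, against 66 with the floor at the 40th percentile, 42 with no filter and 323 with the spike-in term. Leaving out single disease-free arrays gave 147 to 592: 147 without nontransgenic and 155 without WT-SOD1 at 75 days, 179 without nontransgenic and 592 without WT-SOD1 at 110 days. At 75 days 0 passed, against 50 with no filter, 61 with the spike-in term and 13 to 124 without single arrays: 13 without nontransgenic and 38 without WT-SOD1 at 75 days, 65 without nontransgenic and 124 without WT-SOD1 at 110 days. For age 1 passed, against 0 with no filter, 5 with the spike-in term and 2 to 16 without single arrays. For WT-SOD1 against nontransgenic 7 passed, against 0 with the floor at the 40th percentile, with no filter and with arrays scaled to 1 median. Eicosanoid genes that are not members gave 0 calls under every setting but 1: without the WT-SOD1 110-day array 1 passed at 75 and 1 at 110 days, so leave-one-out counts were 0 to 1. The Ptgdr2 difference at 110 days ran from -0.10 to 0.25 and the Ptger1 difference from -0.01 to 0.12. The causes were not tested. The settings on 4 arrays with lower spike-in levels and the pathway counts under each setting were added after seeing the data. With only nontransgenic or only WT-SOD1 controls no test was possible, since no residual degrees of freedom remain, and these gave values alone. No paired analysis was possible because the arrays have no replicate numbers to pair them by; WT-SOD1 and nontransgenic arrays were matched by age alone, through the age term of that fit. Values just above the floor limit what can be seen of Hpgd outside diseased cord, and nothing can be seen of Ptgs2.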
